A study of Sus scrofa with 35 samples.

Results

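The comparison described here is the difference in heat effect between crossbred F1 and Large White (LW) pigs in whole blood, that is, the change from thermoneutral (TN) to heat stress (HS) conditions in F1 pigs minus the same change in LW pigs. Its members were taken from the breed and temperature labels, 6 pigs in each of the 4 groups, and these are 24 of the 35 arrays of the series. RNA of red cell precursors was mostly lower in HS than in TN blood of F1 pigs and closer to its TN level in LW pigs. The difference was thus below 0 for most heme, membrane and reticulocyte genes and for the globins HBE1 and HBZ. The HBB probe was near 0 (-0.09 ± 0.22), and a dim alpha chain probe went the other way (0.56 ± 0.18). Antigen-presenting molecules, splicing factors and enzymes of the citric acid cycle lay mostly on the other side of 0. So did the endoplasmic reticulum chaperones PDIA4, PDIA6, CRELD2, HSPA5, HYOU1 and HSP90B1, which were grouped after their values were seen. Of the whole unfolded protein response list, 15 of 26 genes were above 0, against 56.3% of all genes. Of the 6 F1 TN arrays, 4 were the dimmest of the 24. With array brightness as a covariate the median went from -0.86 to -0.12 for reticulocyte genes and from 0.31 to 0.05 for MHC class I genes. Probes at an unadjusted p under 0.05 in limma went from 8874 to 621. The part of brightness was not tested. No probe of the array passed an adjusted p of 0.05 in the difference itself, and all values of it below are therefore estimates. Most values of single genes are given with their standard error, while list medians and values from other fits are not.

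The study followed castrated growing pigs of 3 genetic types (Creole, LW and their F1 cross) and compared pigs killed before a rise in room temperature with pigs killed after it. F1 TN and LW TN pigs were kept at 24 °C. F1 HS and LW HS pigs carry the label 30 °C, while the protocol text of the same samples gives 5 d at 32 °C. The F1 animals are a first cross of Creole and LW parents. Per the study's methods the pigs were littermates shared out over pens, and all TN pigs were killed before the heat began, so climate and killing date cannot be told apart. The labels give no pen, killing day, parent or age. P-values therefore measure the spread between pigs that shared pens and litters.

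Circulating red cells of pigs have no nucleus, but the youngest of them, the reticulocytes, still hold messenger RNA for globin chains, heme enzymes and membrane proteins, and they lose it as they mature. Blood leukocytes bring the RNA of immune receptors, protein folding and energy metabolism. When unfolded proteins gather in the endoplasmic reticulum, the sensors ERN1 (IRE1), ATF6 and EIF2AK3 (PERK) raise the production of chaperones such as HSPA5 (BiP), whereas heat in the cytosol acts through HSF1 on HSP70, HSP90 and small heat shock proteins. In blood taken as a whole, fewer cells of a type and less RNA per cell cannot be told apart.

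Each probe was a 60-base oligonucleotide, and the letters below are those deposited with the arrays, 5′ to 3′. The set shows the probe with the smallest p above 0 among genes with a symbol (MYO5A), the one with the smallest p below 0 (CENPI), one probe of each of the red cell genes HBE1 and EPB42, and the HSPA5 probe that stood apart from the other HSPA5 probes. Each leaves at least 1 reading frame free of stop codons.
MYO5A: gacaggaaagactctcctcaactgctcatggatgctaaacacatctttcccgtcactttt
CENPI: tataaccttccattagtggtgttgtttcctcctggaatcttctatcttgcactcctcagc
HBE1: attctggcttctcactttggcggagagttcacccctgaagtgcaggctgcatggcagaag
EPB42: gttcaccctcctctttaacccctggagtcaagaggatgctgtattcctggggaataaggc
HSPA5: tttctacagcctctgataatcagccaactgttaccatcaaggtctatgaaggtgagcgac
The difference of these single probes was 0.61 ± 0.13 (log2, SE) for MYO5A, -0.85 ± 0.20 for CENPI, -2.14 ± 0.70 for HBE1, -1.34 ± 0.44 for EPB42 and 0.23 ± 0.18 for HSPA5. The HSPA5 probe shown reads another stretch of the transcript than the other 2 HSPA5 probes, which share 49 of their 60 bases and gave 0.57 each. Those 2 are therefore close to 1 measurement.

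The blood arrays carried the markers of the cells that blood should hold. Of the fixed markers, 5 of 6 measured for immature red cells, 4 of 4 for T cells, B cells, neutrophils and platelets, 3 of 4 for monocytes and 2 of 4 for cytotoxic lymphocytes were well above background on all 24 arrays. The brightness of the arrays moved with the comparison. The 75th percentile of the processed signal averaged 149.9 ± 28.3 intensity units (SD, n = 6) among F1 TN, 237.9 ± 35.6 among F1 HS, 203.7 ± 30.9 among LW TN and 202.1 ± 29.6 among LW HS, so that its own difference in heat effect was 89.6 units (exact permutation test of breed within climate, two-sided, p = 0.00236, 0.00708 after adjustment over 3 array measures). The share of probes well above background rose with it (difference 5.74 percentage points, exact permutation p = 0.00921), and the share of raw signal in globin probes went the other way (-0.123 percentage points, exact permutation p = 0.024). The permutation assumes no breed difference in either climate and pigs that are independent, though pigs shared pens and litters. Its p-values are therefore not tests of the difference in heat effect alone. In 4 of the 6 F1 TN arrays the 75th percentile lay below that of all 18 other arrays, whose lowest was 161.8. The part of this in the results was not tested beyond the values given beside them with these 4 arrays left out, which leaves 2 F1 TN pigs, and with array brightness as a covariate.

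Across the array, 39072 probes passed the authors' filter, and 20540 of them could be tied to 10279 gene symbols. In limma 0 probes reached an adjusted p of 0.05 in the difference (0.0% called, lowest adjusted p 0.122), 7772 (19.9%) had an adjusted p under 0.2, and 8874 (22.7%) an unadjusted p under 0.05. A limma fit that weighted each array by its own scatter gave 3902 probes at an adjusted p under 0.05, and the other fits 0 or 1. Of the probes at an unadjusted p under 0.05, 3709 (9.49% of all probes) were above 0 and 5165 (13.2%) below. Over genes, each the mean of its probes, 1018 (9.9%) were above 0 at an unadjusted p under 0.05 and 1424 (13.9%) below. Estimates above 0 made up 57.6% of the probes and 56.3% of the genes, and the median difference of all genes was 0.06 (log2), against which the medians of gene groups below are to be read.

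Of F1 and LW pigs, probes passed the adjusted threshold for a heat effect only in F1 pigs. Their heat effect held 8109 probes up (20.8%) and 6999 down (17.9%) at a limma adjusted p under 0.05, and over genes 2526 up (24.6%) and 2025 down (19.7%). The LW heat effect held 0 of either, with 3404 (8.71%) at an unadjusted p under 0.05. A count in 1 breed beside a count in the other is no test of the difference. Array brightness also rose with heat in F1 pigs (mean 75th percentile 149.9 in TN and 237.9 in HS) and stayed level in LW pigs (203.7 and 202.1). Its part in these counts was not tested. For the probes below 0 at an unadjusted p under 0.05, the median heat effect was -0.83 (log2) in F1 pigs and -0.11 in LW pigs. For those above 0 it was 0.44 and -0.07. These probes were chosen on the same contrast, so their medians only describe them.

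The group that stood farthest from the mean of the other 3 was mostly F1 TN. That was so for 74.1% of the probes below 0 at an unadjusted p under 0.05 and for 54.3% of those above 0, against 50.1% of all probes. F1 HS was the farthest group for 23.7% and 35.4%, and the LW groups shared the small rest. In TN blood, where 4 of the 6 F1 arrays were the dimmest of the 24, F1 minus LW had 6702 probes (17.2%) at an unadjusted p under 0.05 and 0 (0.0%) at an adjusted one, whereas F1 minus LW in HS had 3216 (8.23%) and 3, with 2 above 0 (0.00512%) and 1 below (0.00256%). The share was lower among dim probes: in 5 equal bins by brightness, 7.78% of the dimmest bin lay below 0 at an unadjusted p under 0.05, and 15.9% of the middle bin.

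**Figure D1:**
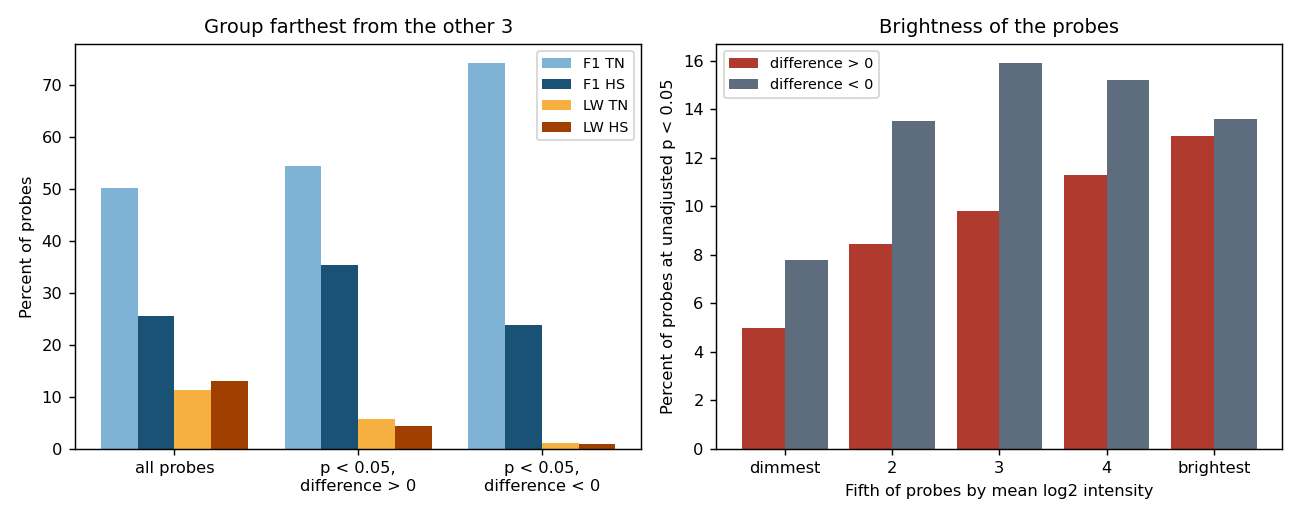
The left panel gives the percent of probes for which each group mean lay farthest from the other 3, for all 39072 probes and for those at an unadjusted p under 0.05 on each side of 0. The right panel gives the percent of probes at an unadjusted p under 0.05 above and below 0 in 5 equal bins of mean log2 intensity; F1 TN was the farthest group for 74.1% of the probes below 0, and the dimmest bin held the lowest percentages.

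Of the 4 measured genes of the globin list, which also holds the stabilizer AHSP, HBE1 and HBZ fell in F1 blood under heat. Neither passed the test in LW blood. HBE1, the epsilon chain of an early hemoglobin, ran from 13.22 over a median of 14.16 to 14.99 (log2 intensity) in F1 TN pigs, and from 9.60 over 12.42 to 13.18 in F1 HS pigs. In LW pigs the same gene ran from 12.99 over 13.59 to 14.24 in TN and from 12.66 over 13.45 to 13.89 in HS. The F1 groups did not overlap and the LW groups lay over each other. The heat effect of HBE1 was -2.28 in F1 (limma adjusted p = 0.0012) and -0.13 in LW, a difference of -2.15 ± 0.73 (SE; unadjusted p = 0.00588, adjusted 0.114).

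HBZ, the zeta chain of the alpha type, fell by 1.15 in F1 pigs (limma adjusted p = 0.0129) and had -0.02 in LW pigs. Its F1 groups overlapped, 14.17 to 16.03 in TN and 12.47 to 14.91 in HS. The alpha chain stabilizer AHSP had a difference of -0.56 ± 0.32, and the HBB probe one of -0.09 ± 0.22. That HBB probe ran from 17.05 to 17.83 over the 4 groups. A second beta chain probe, which carries no symbol, gave -0.64 ± 0.50. The bright alpha chain probe sat at the top value of the quantile scale, 19.01, on most arrays, where no difference can be read. A dimmer probe without a symbol, A_72_P198167, which the file describes as a partial match to the alpha chain, ran from 7.12 to 8.36 over the 4 groups and went the other way, with a difference of 0.56 ± 0.18 (limma unadjusted p = 0.00466). Of 9 genes in the globin list, 4 were measured by symbol (HBE1, HBZ, HBB and AHSP, the last no globin chain). All 4 were below 0 and 2 at an unadjusted p under 0.05 (against 13.9% of all genes), with a median of -0.85.

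Heme synthesis followed the same pattern in its enzymes. UROD, which decarboxylates uroporphyrinogen, lay between 8.58 and 9.47 (median 8.80) in F1 TN pigs and between 6.59 and 8.03 (median 7.75) in F1 HS pigs. LW pigs ranged from 7.94 to 8.88 in TN and from 7.80 to 8.70 in HS. No F1 HS pig reached the lowest F1 TN pig, and the LW groups overlapped. The difference of UROD was -1.14 ± 0.40 (limma unadjusted p = 0.00723), made of a fall by 1.41 in F1 (adjusted p = 0.000438) and of -0.27 in LW. ALAS2, the erythroid enzyme of the first step, fell by 1.40 in F1 pigs (adjusted p = 0.000644) with a difference of -1.13 ± 0.41, and its F1 groups did not overlap either. ALAD, the enzyme of the next step, gave -1.23 ± 0.54. CPOX (0.03 ± 0.49) and the heme exporter FLVCR1 (0.01 ± 0.20) were the 2 of 11 genes not below 0. In all, 4 of the 11 (36.4%, against 13.9% of all genes) were below 0 at an unadjusted p under 0.05, and the list median was -0.64.

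Genes of the red cell membrane and its skeleton had the same median, -0.64 over 19 genes. Of these, 16 were below 0 and 4 of them at an unadjusted p under 0.05 (21.1%, against 13.9% of all genes). EPB42, which ties the band 3 anion exchanger to the skeleton, ran from 9.67 over 10.55 to 11.85 in F1 TN and from 7.16 over 8.90 to 9.71 in F1 HS pigs. In LW pigs it ran from 9.57 over 9.92 to 10.30 in TN and from 9.04 over 9.58 to 9.88 in HS. The F1 groups met at a single pair of pigs, and the LW groups overlapped more widely. EPB42 fell by 1.83 in F1 pigs (limma adjusted p = 0.000651) and its difference was -1.46 ± 0.54. The actin bundler DMTN gave -1.34 ± 0.55 over 4 probes, and the water channel AQP1 gave -1.02 ± 0.44 over 3 probes. The 3 genes above 0 were ADD1 (0.17 ± 0.20), CD59 (0.28 ± 0.69) and CD47 (0.00 ± 0.17). CD59 and CD47 sit on leukocytes as well.

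**Figure D2:**
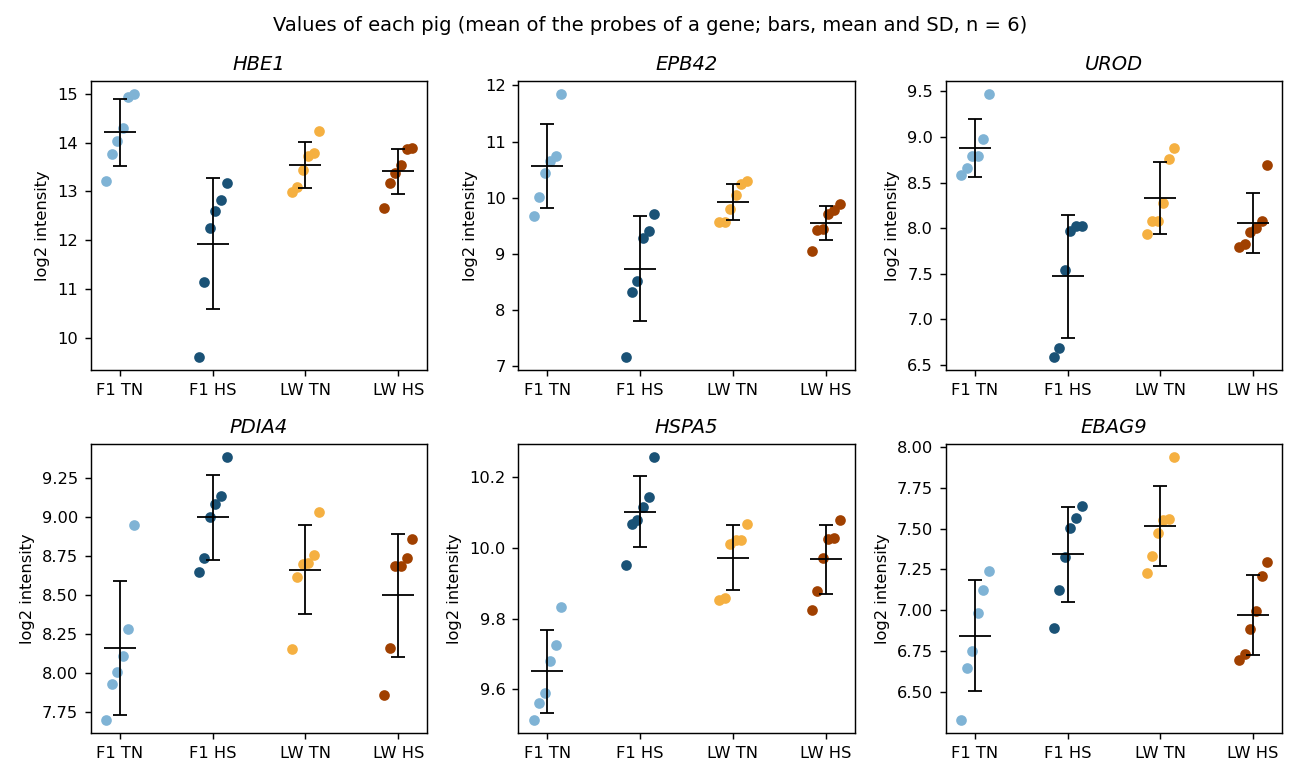
Log2 intensity of HBE1, EPB42, UROD, PDIA4, HSPA5 and EBAG9 in each pig, as the mean of the probes of a gene, with bars for the mean and SD of 6 pigs. F1 TN and F1 HS separate in HBE1, UROD and HSPA5, and the LW groups overlap in all 6 genes.

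Transcription factors of the erythroid line were shifted less. Their median was -0.33 over 12 genes, 11 of them below 0 and 4 at an unadjusted p under 0.05 (33.3%, against 13.9% of all genes). GFI1B, a repressor that red cell and platelet precursors need, ran from 8.24 to 8.73 in F1 TN and from 7.10 to 7.93 in F1 HS, with no overlap. It fell by 1.02 in F1 pigs (limma adjusted p = 0.00027), and its difference was -0.77 ± 0.27. HEMGN, an erythroid nuclear factor, gave -1.52 ± 0.65, and the GATA1 cofactor LDB1 gave -0.42 ± 0.16. LMO2 was the exception at 0.58 ± 0.29 (unadjusted p = 0.052).

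The list of genes that mark reticulocyte maturation was the largest of these and had the lowest median of the 19 lists described, -0.86. Of its 32 genes, 30 were below 0 and 14 of them at an unadjusted p under 0.05 (43.8%, against 13.9% of all genes). In F1 pigs 25 of the 32 fell at a limma adjusted p under 0.05, against 19.7% of all genes, and none did in LW pigs. The median heat effect was -1.06 in F1 and -0.18 in LW pigs. Before heat the F1 pigs stood above the LW pigs by a median of 0.39, and in HS they stood below by 0.43 (-0.43). SIAH2, a ubiquitin ligase, lay between 10.32 and 11.70 among F1 TN, 9.20 and 10.64 among F1 HS, 9.60 and 10.51 among LW TN and 9.84 and 10.65 among LW HS. Its difference of -1.04 ± 0.36 joined a fall by 0.79 in F1 (adjusted p = 0.0138) to 0.26 in LW. OSBP2, a sterol-binding protein, gave -1.02 ± 0.37, and GLRX5, which serves iron-sulfur cluster assembly, gave -1.01 ± 0.37. The transferrin receptor TFRC, which brings iron into precursors, was at 0.05 ± 0.48, and the purine enzyme PNP at 0.03 ± 0.28.

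Each of the 5 red cell lists had a median below 0 in each of the 4 slides that held all 4 groups. For the reticulocyte list these medians were -0.74, -0.49, -0.65 and -1.13, and slide 4 was the lowest for 4 of the 5 lists. The 6 measured markers of immature red cells were all below 0 with a median of -0.70. Their mean level ranged from 11.47 to 13.07 among F1 TN, 10.64 to 11.96 among F1 HS, 11.78 to 12.44 among LW TN and 11.42 to 12.21 among LW HS. The size of the difference went with array brightness: the level of the reticulocyte list and the 75th percentile had a Pearson r of -0.73 over the 24 arrays and of -0.50 after group means were removed, given without a test. With the 4 dim F1 TN arrays left out the list median was -0.33, with brightness as a covariate -0.12, and with the mean of the red cell membrane list as a covariate -0.22. It stayed below 0 in all of them. In limma EPB42 then had -0.74 (unadjusted p = 0.256), -0.44 (unadjusted p = 0.365) and -0.47 (unadjusted p = 0.079). EPB42 is itself 1 of the 19 genes in the red cell membrane covariate, so its last value is drawn toward 0 partly by construction. The part of array brightness in the breed difference was not tested.

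**Figure D3:**
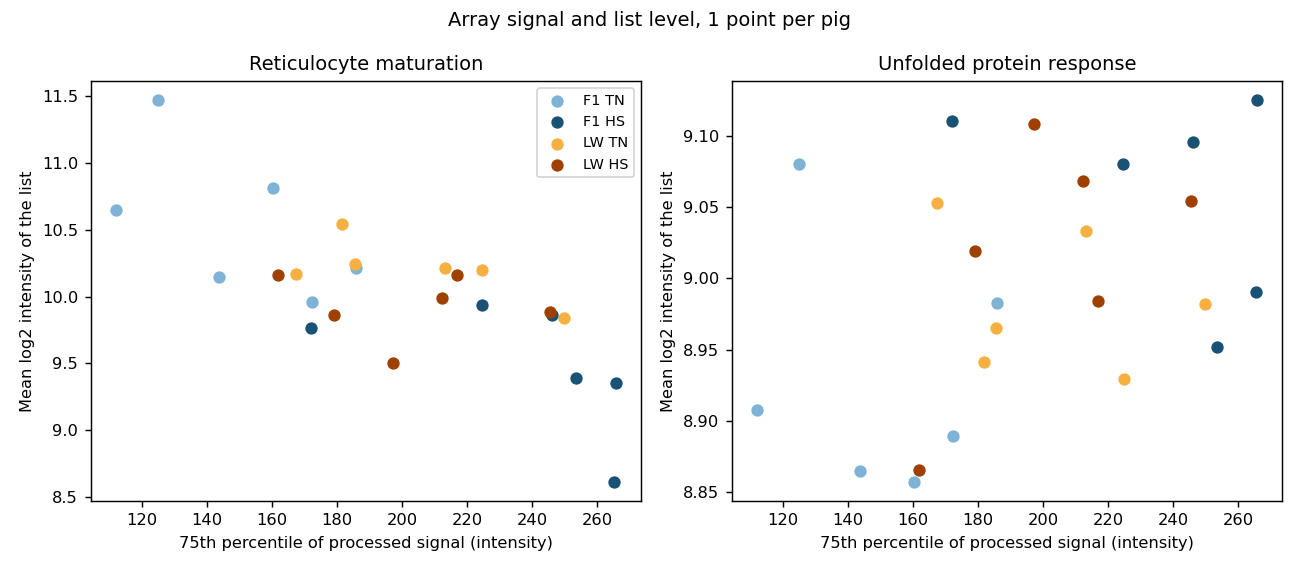
Mean log2 intensity of the reticulocyte maturation list (left) and of the unfolded protein response list (right) against the 75th percentile of processed signal, 1 point per pig. The 4 dimmest arrays are F1 TN pigs. Replicates 4, 1 and 2 of these carry the highest reticulocyte levels (11.47, 10.81 and 10.65), while replicate 3 lies at 10.14, below several LW pigs. The reticulocyte list has r = -0.73 over 24 arrays, and the unfolded protein response list shows a weaker relation (r = 0.38).

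On the other side of 0, chaperones of the endoplasmic reticulum such as PDIA4, PDIA6, CRELD2 and HSPA5 were up-regulated in F1 blood under heat. These chaperones were grouped after their values were seen. PDIA4, a protein disulfide isomerase, ran from 7.70 over 8.06 to 8.95 among F1 TN, from 8.64 over 9.04 to 9.38 among F1 HS, from 8.16 over 8.70 to 9.03 among LW TN and from 7.86 over 8.69 to 8.86 among LW HS. A single F1 TN pig reached into the F1 HS range, and the LW groups lay over each other. PDIA4 rose by 0.84 in F1 pigs (limma adjusted p = 0.00136) against -0.16 in LW pigs, a difference of 0.998 ± 0.272 (unadjusted p = 0.000874, adjusted 0.114). PDIA6, another isomerase, had F1 groups that did not overlap, 8.79 to 9.66 in TN and 9.72 to 10.15 in HS, and a difference of 0.74 ± 0.22. CRELD2, a chaperone induced by the same response, gave 0.67 ± 0.21 over 3 probes that ranged from 0.60 to 0.77.

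HSPA5, the main chaperone of this compartment, was among the steadiest of these genes. As the mean of its 3 probes it lay between 9.51 and 9.83 in F1 TN and between 9.95 and 10.26 in F1 HS. LW pigs lay between 9.85 and 10.07 in TN and between 9.82 and 10.08 in HS. The F1 TN pigs were below all 18 other pigs but for the overlap of the top F1 TN pig with the lowest LW HS pig. HSPA5 rose by 0.45 in F1 (limma adjusted p = 0.000238) and had -0.01 in LW, so the difference was 0.46 ± 0.12 (unadjusted p = 0.000406). HYOU1, an HSP110-type partner of HSPA5, gave 0.49 ± 0.16. HSP90B1, the HSP90 of the same compartment, gave 0.57 ± 0.25, and each of its 9 probes was above 0 (0.46 to 0.64).

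Over the unfolded protein response list, 15 of 26 genes were above 0, against 56.3% of all genes. Of these 15, 7 had an unadjusted p under 0.05 (26.9% of the list, against 9.9% of all genes), as had 1 of the 11 below 0. The median of 0.12 was only a little above the 0.06 of all genes. In F1 pigs 13 of the 26 rose at a limma adjusted p under 0.05, against 24.6% of all genes. The gene below 0 at an unadjusted p under 0.05 was the sensor ERN1, with -1.32 ± 0.48. The degradation ligase SYVN1 gave -0.32 ± 0.17 and the sensor ATF6 -0.28 ± 0.17, and neither had an unadjusted p under 0.05. The sensor EIF2AK3, named after its value was seen, gave -0.16 ± 0.16. ERN1 ran from 10.09 to 11.69 in F1 TN and from 8.35 to 10.57 in F1 HS, where it fell by 1.56 (adjusted p = 0.000827). It also had -0.24 in LW pigs, whose groups overlapped.

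With the 4 dim F1 TN arrays left out HSPA5 had 0.43 (limma unadjusted p = 0.00651), and with brightness as a covariate 0.35 (unadjusted p = 0.00804). PDIA4 had 0.55 (limma unadjusted p = 0.0975) and 0.57 (unadjusted p = 0.0385) in the same fits. The level of the list and the 75th percentile had a Pearson r of 0.38 over the 24 arrays and of -0.05 after group means were removed. Within slides the list median was 0.16, 0.18, 0.02 and 0.03.

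Cytosolic heat shock proteins were mixed. Among the HSP70 and HSP110 family, 9 of 11 genes were above 0 with a median of 0.20. Only HSPA5 and HYOU1, both of the endoplasmic reticulum, had an unadjusted p under 0.05 (18.2%, against 9.9% of all genes). The constitutive HSPA8 gave 0.49 ± 0.30, mitochondrial HSPA9 -0.09 ± 0.13 and HSPA1L -0.11 ± 0.36. Of 18 HSP90 genes and co-chaperones 13 were above 0, with a median of 0.17. PPID, a cyclophilin that binds HSP90, ran from 6.04 to 6.63 in F1 TN and from 6.65 to 7.13 in F1 HS, and its difference was 0.57 ± 0.17 (unadjusted p = 0.00197). SUGT1, a co-chaperone of immune receptors, gave 0.52 ± 0.21, whereas FKBP8 gave -0.33 ± 0.20, PPP5C -0.11 ± 0.13 and CHORDC1 -0.16 ± 0.22.

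Small heat shock proteins, BAG proteins and heat shock factors lay below 0 more often than above. Their median was -0.27, with 8 of 12 genes below 0 and 5 of those at an unadjusted p under 0.05 (41.7%, against 13.9% of all genes). HSPB8, a small heat shock protein that works with BAG3, ran from 8.85 over 9.31 to 9.44 in F1 TN and from 6.99 over 7.80 to 8.40 in F1 HS. LW pigs ran from 7.70 over 8.62 to 9.02 in TN and from 7.99 over 8.21 to 8.65 in HS. F1 TN stood above every F1 HS pig, and the LW groups overlapped. The difference of HSPB8 was -1.23 ± 0.39, that of BAG4 -1.12 ± 0.35 and that of HSPB6 -0.55 ± 0.16 (limma unadjusted p = 0.00352, 0.00288 and 0.0017). BAG3 itself was at 0.26 ± 0.14, cold-inducible CIRBP at 0.11 ± 0.12 and HSPB2 at 0.19 ± 0.23. With the 4 dim F1 TN arrays left out the list median was -0.28 and HSPB6 had -0.51 (limma unadjusted p = 0.0171), but HSPB8 had -0.92 (unadjusted p = 0.0772) and BAG4 -0.80 (unadjusted p = 0.0768). With brightness as a covariate HSPB8 had -0.48 and BAG4 -0.50, neither at an unadjusted p under 0.05.

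**Figure D4:**
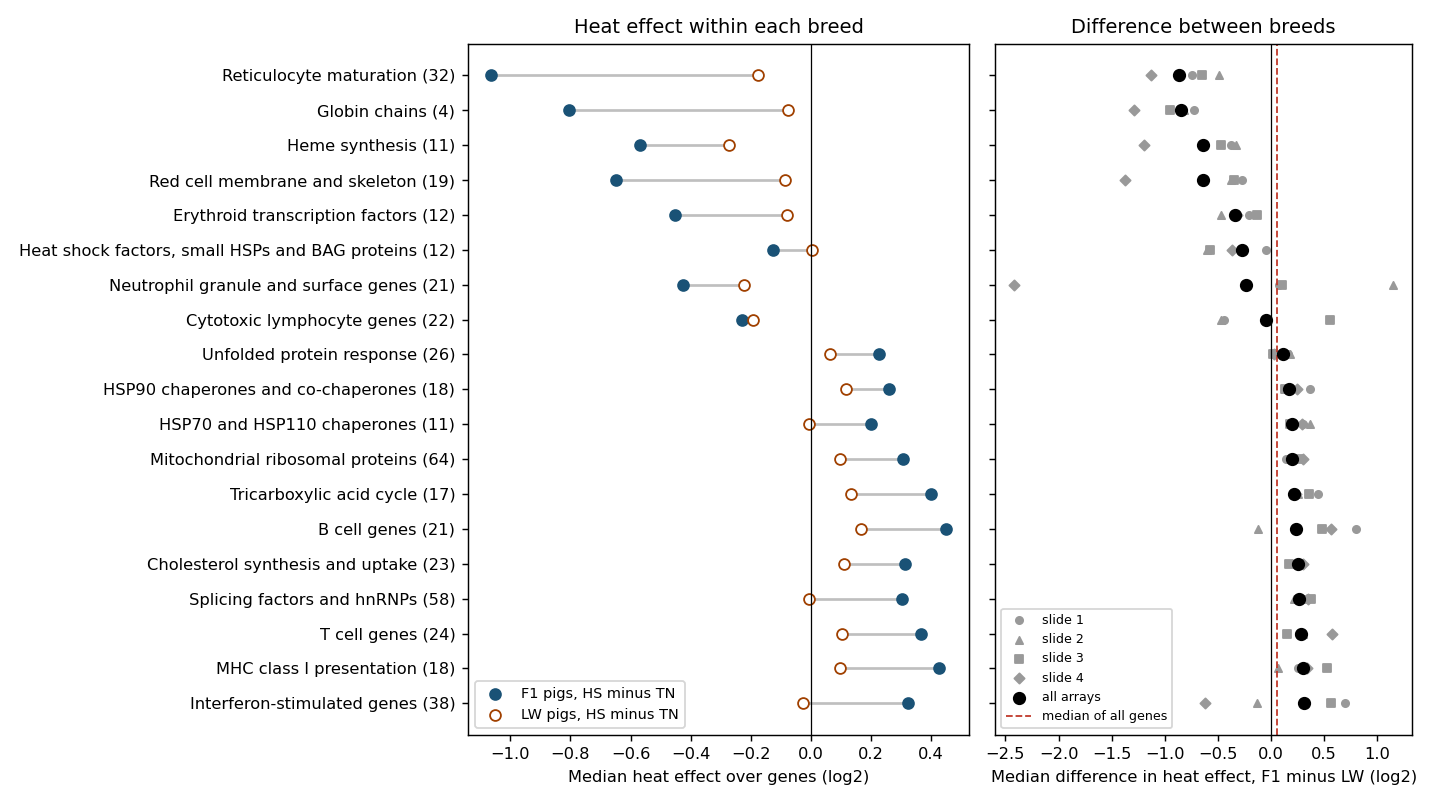
Median heat effect (log2, HS minus TN) of the genes of 19 lists in F1 and LW pigs on the left, with the number of measured genes in brackets, and the median difference F1 minus LW over all arrays and within slides 1 to 4 on the right. The red cell lists lie below 0 on every slide, while neutrophil, cytotoxic, B cell and interferon lists change sides between slides.

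Of 18 genes of MHC class I presentation, 10 were up-regulated in F1 pigs under heat at a limma adjusted p under 0.05, against 24.6% of all genes. In the difference 15 were above 0, 6 of them at an unadjusted p under 0.05 (33.3%, against 9.9% of all genes), and the median was 0.31. SLA-2, a class I heavy chain of the pig, ran from 14.73 to 15.87 among F1 TN, 15.61 to 16.54 among F1 HS, 15.33 to 15.76 among LW TN and 15.42 to 15.91 among LW HS. It rose by 0.74 in F1 (limma adjusted p = 0.00155), and the difference was 0.64 ± 0.25. SLA-3 gave 0.72 ± 0.29, with 8 probes between 0.27 and 1.54. SLA-5 gave 2.03 ± 0.69, but its 2 probes disagreed in size, 0.65 and 3.41. SLA class I genes are near-identical copies that vary between animals, so which copy each probe read is uncertain. The peptide trimmer ERAP1 (-0.13 ± 0.25), the regulator NLRC5 (-0.01 ± 0.18) and SLA-7 (-0.14 ± 0.14) were the genes below 0. With the dim F1 TN arrays left out the median was 0.13.

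T cell genes had 20 of 24 above 0 and a median of 0.29, with 3 at an unadjusted p under 0.05 (12.5%, against 9.9% of all genes). CD3D, a chain of the T cell receptor complex, ran from 8.61 to 9.26 among F1 TN, 8.84 to 9.92 among F1 HS, 9.30 to 9.91 among LW TN and 9.28 to 9.67 among LW HS. No F1 TN pig reached the lowest LW pig, while the other 3 groups overlapped. Its difference was 0.63 ± 0.26, made of a rise by 0.64 in F1 (limma adjusted p = 0.00706) and 0.02 in LW. CD8A gave 0.80 ± 0.29, of which -0.48 was the LW heat effect, and the costimulator ICOS gave 0.53 ± 0.22. PRKCQ gave -0.29 ± 0.14, and CTLA4 and TRAT1 -0.05 each. T cell level also went with array brightness (r = 0.75 over 24 arrays, 0.56 after group means were removed), and the list median was 0.01 with brightness as a covariate.

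B cell genes had a median of 0.24, with FCRLA (0.60 ± 0.26) and JCHAIN (0.91 ± 0.43) above 0 and PAX5 (-0.66 ± 0.25) below 0 at an unadjusted p under 0.05. Of the 21 genes that is 9.52% above 0 and 4.76% below, against 9.9% and 13.9% of all genes. PAX5, the factor that fixes B cell identity, thus lay opposite to FCRLA and JCHAIN, and LYN, a kinase of the B cell receptor, gave 0.59 ± 0.30. BTK (-0.08 ± 0.29) and CD24 (-0.10 ± 0.38) were near 0. Cytotoxic lymphocyte genes showed no common side, 9 above and 13 below 0 with a median of -0.05. CD244, a receptor of NK cells, ran from 9.53 to 9.85 in F1 TN and from 8.36 to 9.01 in F1 HS without overlap, and its difference was -0.77 ± 0.24. NCR3, another NK receptor, gave -1.59 ± 0.68, with a lone F1 HS pig at 5.38 and a group median of 8.91. The transcription factor TBX21 gave -0.79 ± 0.42, the granzyme GZMK 0.59 ± 0.31, perforin PRF1 0.37 ± 0.26 and EOMES 0.25 ± 0.21.

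Neutrophil and interferon genes varied more between pigs than between the groups. The mean of the neutrophil list ran from 8.96 to 11.20 among F1 TN, 8.30 to 10.63 among F1 HS, 9.30 to 10.51 among LW TN and 8.68 to 10.49 among LW HS. Its median difference of -0.24 turned to 1.15 on slide 2 and -2.42 on slide 4. ARG1, the arginase of granulocytes, fell by 2.19 in F1 pigs (limma adjusted p = 0.00103) and had a difference of -1.60 ± 0.69. ELANE and CEBPE, a granule protease and a granulocyte factor, gave -0.72 ± 0.34 and -0.60 ± 0.27, and LYZ, CXCR1 and CXCR2 gave 0.67 ± 0.69, 0.33 ± 0.40 and 0.24 ± 0.43. Interferon-stimulated genes had the highest median of the 19 lists described, 0.32, yet only OASL (0.84 ± 0.31) and RIGI (0.55 ± 0.26) of 38 had an unadjusted p under 0.05. That is 5.26% above 0 and 0.0% below, against 9.9% and 13.9% of all genes. IFIT1 lay at -0.87 ± 0.52, IRF7 at -0.43 ± 0.30, BST2 at -0.18 ± 0.35 and GBP1 at 0.55 ± 0.29. The interferon median was 0.69, -0.13, 0.57 and -0.63 within slides 1 to 4, and 0.15 without replicate 4 of F1 TN. It was 0.075 without the 4 dim F1 TN arrays, 0.074 with brightness as a covariate, 0.045 with the red cell membrane list as a covariate and 0.055 with array weights, and in each of these fits other lists stood above it.

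Lists of mitochondrial and biosynthetic genes did not share a side. Respiratory complexes III to V had a median of -0.06 with 25 of 43 genes below 0, and cytosolic ribosomal proteins one of -0.09 with 42 of 72 below 0, whereas complex I had 0.16 with 26 of 37 above 0. In the citric acid cycle 14 of 17 genes were above 0, 6 at an unadjusted p under 0.05 (35.3%, against 9.9% of all genes). In F1 pigs 11 of the 17 rose at a limma adjusted p under 0.05, against 24.6% of all genes. IDH2, the mitochondrial NADP-dependent isocitrate dehydrogenase, ran from 10.37 to 10.81 in F1 TN and from 10.93 to 11.22 in F1 HS without overlap, and its difference was 0.33 ± 0.13. Cytosolic malate dehydrogenase MDH1 gave 0.54 ± 0.18 over 5 probes between 0.37 and 0.66, and IDH3A gave 0.48 ± 0.19. SDHB (-0.16 ± 0.12) and ACO1 (-0.14 ± 0.13) were among those below 0. The list median was 0.22, and 0.06 with brightness as a covariate. The level of the list went with array brightness (r = 0.74 over 24 arrays, 0.50 after group means were removed). With that covariate MDH1 had 0.19, IDH2 0.11 and IDH3A 0.11 (limma unadjusted p = 0.223, 0.362 and 0.495).

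Mitochondrial ribosomal proteins had 48 of 64 genes above 0, 12 of them at an unadjusted p under 0.05 (18.8%, against 9.9% of all genes). Their median was 0.20. MRPL46 and MRPL9 each separated the F1 groups, MRPL46 at 8.52 to 8.99 in TN against 9.16 to 9.33 in HS. Their differences were 0.41 ± 0.15 and 0.50 ± 0.17, and that of MRPL16 was 0.65 ± 0.22. MRPL22 (-0.85 ± 0.29), MRPS18A (-0.41 ± 0.14) and MRPS17 (-0.35 ± 0.16) lay below 0, each measured by 1 probe. Splicing factors and heterogeneous nuclear ribonucleoproteins had 48 of 58 genes above 0 and a median of 0.27. Of these 48, 13 had an unadjusted p under 0.05 (22.4% of the list, against 9.9% of all genes). The SF3b subunit SF3B3 gave 0.39 ± 0.13, SRSF9 0.57 ± 0.20 with all 7 probes above 0, and HNRNPAB 0.50 ± 0.19. HNRNPA2B1 (-0.74 ± 0.26), HNRNPF (-0.39 ± 0.15) and HNRNPD (-0.44 ± 0.20) went the other way on 1 probe each. With brightness as a covariate the medians were 0.065 for mitochondrial ribosomal proteins and 0.091 for splicing factors.

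Cholesterol synthesis and uptake had 19 of 23 genes above 0, a median of 0.26 and 5 genes at an unadjusted p under 0.05 (21.7%, against 9.9% of all genes). FDPS, which makes farnesyl diphosphate, ran from 8.02 over 8.56 to 9.14 in F1 TN and from 9.17 over 9.23 to 9.51 in F1 HS. LW pigs ran from 8.43 over 8.87 to 8.95 in TN and from 8.77 over 9.13 to 9.39 in HS. Both breeds thus had higher medians under heat, with 0.76 in F1 (limma adjusted p = 0.000413) and 0.30 in LW, and the difference was 0.46 ± 0.21. The cholesterol exporter NPC1 gave 0.57 ± 0.19. The regulators SREBF1 (-0.36 ± 0.23) and SREBF2 (-0.26 ± 0.16) and the reductase TM7SF2 (-0.12 ± 0.23) were below 0.

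Among genes with a symbol and a probe well above background in every group, the 10 smallest p above 0 belonged to MYO5A, EBAG9, YIPF5, CNNM4, LETMD1, AMY2, LMTK2, HSPA5, CTDP1 and DHX38. All 10 had a limma adjusted p of 0.122 in the difference, with unadjusted p from 3.23e-05 to 0.000294. MYO5A, the myosin Va motor of vesicles, ran from 6.48 over 6.54 to 6.74 among F1 TN, from 6.92 over 7.11 to 7.36 among F1 HS, from 6.84 over 6.94 to 7.06 among LW TN and from 6.67 over 6.85 to 7.19 among LW HS. F1 TN lay below F1 HS and LW TN without overlap. MYO5A rose by 0.54 in F1 pigs (adjusted p = 0.000211) and had -0.06 in LW pigs.

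EBAG9 is a regulator of granule secretion in cytotoxic T cells, and its estimates had opposite signs in the breeds. Its most significant probe ran from 6.18 over 6.52 to 6.71 among F1 TN and from 6.63 over 7.01 to 7.16 among F1 HS, and from 6.76 over 6.98 to 7.42 among LW TN and from 6.36 over 6.54 to 6.83 among LW HS. F1 TN and LW HS were the low groups. The heat effect was 0.44 in F1 (limma adjusted p = 0.012) and -0.43 in LW (adjusted p = 0.563). The gene had 4 probes, 2 of them with the same 60 bases, and they gave 0.87 to 1.17.

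YIPF5, a membrane protein between the endoplasmic reticulum and the Golgi apparatus, gave 0.93 ± 0.21, but its 3 probes ran from -0.01 to 0.93. The magnesium transport protein CNNM4 gave 0.69 ± 0.16, the mitochondrial protein LETMD1 0.65 ± 0.16 and the splicing helicase DHX38 0.66 ± 0.16. CTDP1, the phosphatase of the RNA polymerase II tail, gave 0.60 ± 0.15 with all 4 probes above 0. The amylase AMY2 gave 0.56 ± 0.14, with 20 of 21 probes above 0. The kinase LMTK2 gave 0.82 ± 0.20 on one probe and -0.17 on the other, so the gene as a whole is uncertain.

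The 10 smallest p below 0 belonged to CENPI, XPNPEP2, SMARCC2, NUDT22, WFDC3, ATP5IF1, RECK, INTS6, GRM2 and USHBP1, again with an adjusted p of 0.122 throughout. CENPI, a protein of the centromere, ran from 7.02 over 7.22 to 7.58 among F1 TN, from 5.87 over 6.36 to 6.55 among F1 HS, from 6.56 over 6.70 to 7.10 among LW TN and from 6.39 over 6.67 to 6.74 among LW HS. All F1 HS pigs lay below all F1 TN pigs, and the LW groups overlapped. CENPI fell by 0.98 in F1 (limma adjusted p = 0.000211) and its second probe gave -0.31.

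ATP5IF1, which holds back the ATP synthase from running in reverse and is needed for heme synthesis in red cell precursors, was measured by 5 probes between -1.24 and -0.88. Its most significant probe ran from 8.61 to 9.49 among F1 TN, 7.41 to 8.37 among F1 HS, 8.18 to 8.83 among LW TN and 8.19 to 8.86 among LW HS. It fell by 1.05 in F1 (limma adjusted p = 0.00031) and had 0.06 in LW. WFDC3 gave -0.84 ± 0.21 with 4 probes between -1.44 and -0.84. The aminopeptidase XPNPEP2 gave -0.78 ± 0.19 on one probe and -0.05 on the other. The chromatin remodeler SMARCC2 gave -0.54 ± 0.13 with 5 of 6 probes below 0, and the Integrator subunit INTS6 -0.60 ± 0.15 with 3 of 7. NUDT22, a UDP-sugar hydrolase (-0.65 ± 0.16), RECK, an inhibitor of matrix proteases (-0.73 ± 0.19), the glutamate receptor GRM2 (-0.81 ± 0.21) and USHBP1 (-0.56 ± 0.15) rested on 1 probe each.

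Whatever their name, the 3 smallest p above 0 were those of 2 probes without a symbol, A_72_P326563 (0.93 ± 0.18) and A_72_P325853 (0.62 ± 0.13), with MYO5A between them. The file describes the first as a match to a CD99 antigen precursor, a leukocyte surface protein. It ran from 5.57 to 5.93 among F1 TN, 6.23 to 6.62 among F1 HS, 5.79 to 6.42 among LW TN and 5.60 to 6.03 among LW HS, and F1 HS stood apart from F1 TN. Below 0 the 3 smallest were A_72_P053671 (-1.01 ± 0.22), A_72_P378468 (-0.60 ± 0.13) and CENPI.

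These 24 probes, 20 with a symbol by the first rule and 4 more by the second, had the same sign within each of slides 1 to 4. Each kept an unadjusted p under 0.05 without any 1 array (highest p 0.00144), with brightness as a covariate (highest p 0.0294) and with the 4 dim F1 TN arrays left out (highest p 0.0347), though none reached an adjusted p of 0.05 in the last 2 fits. Across the array these fits left 621 and 1916 probes at an unadjusted p under 0.05, against 8874. Of the 62 named genes of the lists with an unadjusted p under 0.05, 44 kept it without any 1 array, 7 with brightness as a covariate and 9 with the dim arrays left out. Their sizes moved more. With brightness as a covariate the 12 above 0 ran from 0.28 to 0.71, against 0.56 to 0.93 before, and ATP5IF1 went to -0.45 and CTDP1 to 0.28. Under 75th percentile scaling A_72_P325853 went to 2.07. The probes had been picked for their small p, so their number is a description.

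**Figure D5:**
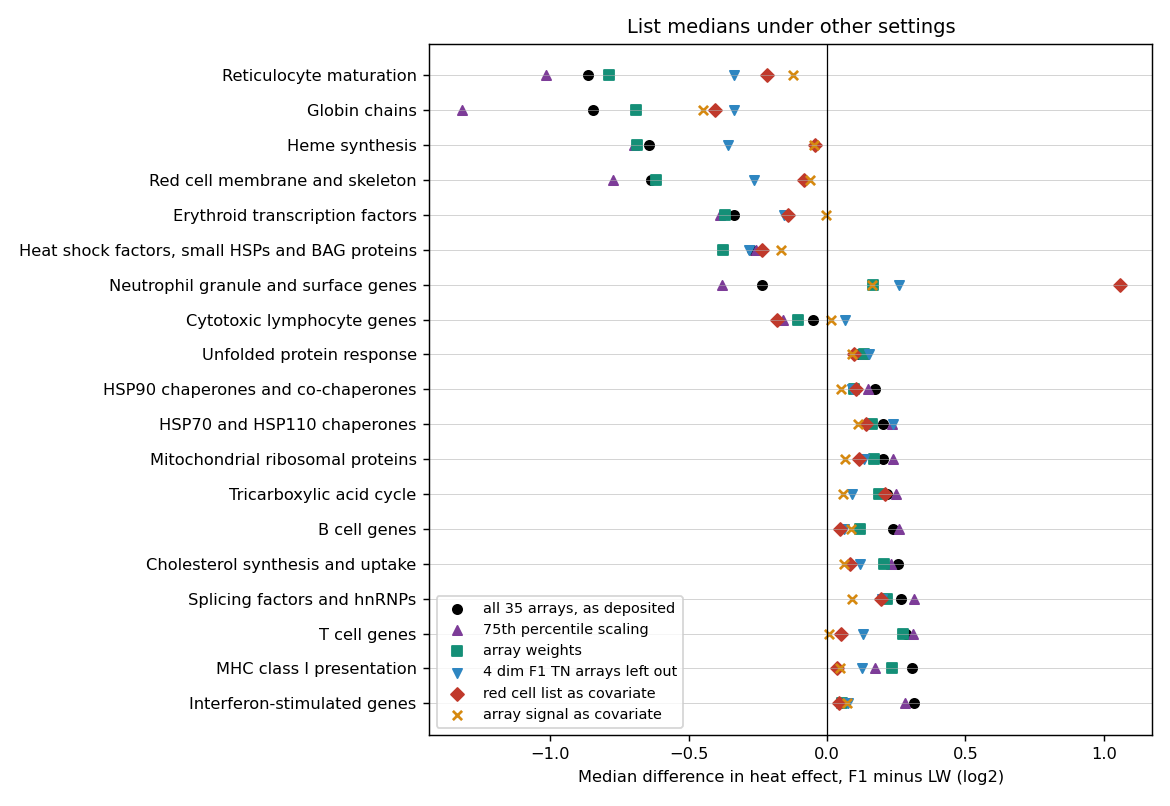
Median difference in heat effect (log2, F1 minus LW) of 19 gene lists under 6 fits, 1 symbol per fit. The red cell lists keep their side of 0 but move from -0.86 to -0.12 (reticulocyte maturation) once brightness enters as a covariate, the neutrophil list changes side, and the unfolded protein response stays between 0.09 and 0.15. With the red cell list as covariate, the red cell membrane list is adjusted for its own mean.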

How the data were processed

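RNA of whole blood kept in PAXgene tubes was hybridised to 1-colour pig arrays, 1 per pig. The authors read the scans with Agilent Feature Extraction 10.10.1.1 and deposited log2 values of 39072 probes after a filter on dim probes and quantile normalization between arrays; quantile-normalized median intensity recomputed from the deposited scanner files matched them with a lowest r of 0.99987 over arrays. Array brightness and the alternatives came from the deposited intensity columns of the scanner files.

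Groups were taken from the breed and temperature labels. A limma 3.58.1 fit (R 4.3.3) over all 35 arrays, 1 mean per breed and temperature, gave the contrast (F1 HS - F1 TN) - (LW HS - LW TN) with Benjamini-Hochberg adjustment over all 39072 probes, or over 10279 genes as means of their probes. Pen, killing day and parents, which the authors' model held as random terms, have no labels and were not fitted. Of 39072 probes, 20540 were given a symbol from the file's names, gene numbers, accessions or older symbols; 3022 share their 60 bases with another probe.

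The genes named are the 10 smallest p above and below 0 (1 probe per gene, with a symbol, well above background on at least 3 of 6 arrays in each group), the 3 smallest in each direction whatever their name, and, in each of 19 of 52 gene lists, up to 3 genes in each direction, or all where a list has 10 measured genes or fewer. Some genes that this rule picks are not reported here. The members and lists were chosen with earlier results of these data known. Alternatives were the 24 arrays alone, other scalings, background corrections and filters, slide as a block, array weights, 2 covariates and each array left out. The fit without the 4 dim F1 TN arrays was chosen after seeing the data. Promoter motifs and genome positions were not analysed here. How the fits behave where arrays share brightness or pigs share pens and litters was not tested. The number of arrays limits the precision.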

Additional observations from a re-analysis of the deposited data

Results flagged for a closer look

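Of 184 groups of 6 values examined for a sample far from the other 5 (Dixon's test, critical value 0.625), 9 had one, and chance gives about 1 in 20. The probe values were 6.51 (log2) for YIPF5 in replicate 3 of LW HS, 10.8 for HSPA5 in replicate 4 of F1 HS, 6.31 (6.305) for XPNPEP2 in replicate 5 of F1 TN, 6.15 (6.146) for SMARCC2 in replicate 5 of LW HS and 8.19 (8.189) for INTS6 in replicate 3 of LW TN. The share of raw signal in globin probes was 0.396% in replicate 1 of LW HS. List means apart from their group were 9.37 for heme synthesis in replicate 4, 8.32 for heat shock factors, small heat shock proteins and BAG proteins in replicate 5, and 8.98 for B cell genes in replicate 1, all of LW HS. The HSPA5 sample lies on the low side of its group, toward F1 TN.

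The 3 array measures had these differences in heat effect, with p from an exact permutation of breed within climate: 89.6 intensity units for the 75th percentile of processed signal (p = 0.00236), 5.74 percentage points for probes well above background (p = 0.00921) and -0.123 percentage points for the globin share of raw signal (p = 0.024). The permutation assumes no breed difference in either climate and independent pigs, so a breed difference alone can also lower p. Their part in the gene differences was not tested.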

How the results depend on the processing

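No paired analysis was possible because replicate numbers follow accession order and pair no animals. At an adjusted p under 0.05 the count was 0 of probes in limma in every fit except 75th percentile scaling (1) and array weights (3902), and 0 without any 1 array. At an unadjusted p under 0.05 the 8874 probes (3709 above, 5165 below 0) became 4017 (1612 and 2405) with the red cell membrane list as a covariate, 621 (297 and 324) with brightness as a covariate and 1916 (946 and 970) without the 4 dim F1 TN arrays. Array weights gave 5919 above 0. Without 1 array the count ran from 6568 to 10723, above 0 from 2459 (without F1 HS replicate 5) to 5117 and below 0 from 4034 to 5793. The cause was not tested.

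List medians moved as follows. With the red cell covariate the red cell membrane list is adjusted for its own mean, so its median there is drawn toward 0 by construction. With brightness as a covariate they were -0.061 for red cell membrane, -0.047 for heme, -0.0051 for erythroid factors, -0.12 for reticulocytes, 0.052 for HSP90, 0.0063 for T cells, 0.046 for MHC class I, 0.059 for the citric acid cycle, 0.091 for splicing, 0.065 for mitochondrial ribosomal proteins, 0.060 for cholesterol, -0.45 for globin, 0.11 for HSP70, -0.16 for small heat shock proteins, 0.087 for B cells, 0.074 for interferon, 0.16 for neutrophils and 0.013 for cytotoxic genes. With the red cell covariate they were -0.083 for red cell membrane, -0.043 for heme, -0.22 for reticulocytes, 1.06 for neutrophils, 0.050 for T cells, 0.037 for MHC class I, 0.12 for mitochondrial ribosomal proteins, 0.082 for cholesterol, -0.41 for globin, -0.14 for erythroid factors, 0.10 for HSP90, 0.045 for B cells, 0.045 for interferon and -0.18 for cytotoxic genes. Without the dim arrays they were -0.34 for globin, -0.27 for red cell membrane, -0.33 for reticulocytes, 0.091 for the citric acid cycle, 0.12 for cholesterol, 0.26 for neutrophils, 0.067 for cytotoxic genes, 0.060 for B cells, 0.075 for interferon, -0.15 for erythroid factors, -0.36 for heme, 0.13 for MHC class I, 0.13 for T cells and 0.090 for HSP90. Under 75th percentile scaling globin gave -1.32, neutrophils -0.38, cytotoxic genes -0.16 and MHC class I 0.17. Array weights gave 0.055 for interferon, 0.12 for B cells, 0.098 for HSP90, 0.17 for neutrophils and -0.11 for cytotoxic genes. The brightest probe of a gene gave -0.56 for erythroid factors and 0.35 for HSP70.

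Within slide 1 the medians that moved were -0.27 for red cell membrane, 0.36 for HSP90, -0.045 for small heat shock proteins, 0.80 for B cells, -0.45 for cytotoxic genes, 0.69 for interferon and 0.44 for the citric acid cycle. Slide 2 gave 0.37 for HSP70, -0.60 for small heat shock proteins, 1.15 for neutrophils, -0.12 for B cells, -0.47 for cytotoxic genes, 0.062 for MHC class I and -0.13 for interferon. Slide 3 gave 0.015 for the unfolded protein response, -0.58 for small heat shock proteins, 0.48 for B cells, 0.56 for cytotoxic genes, 0.53 for MHC class I and 0.36 for the citric acid cycle. Slide 4 gave -1.29 for globin, -1.38 for red cell membrane, -1.20 for heme, 0.027 for the unfolded protein response, -2.42 for neutrophils, 0.57 for T cells, 0.56 for B cells, -0.63 for interferon and 0.30 for mitochondrial ribosomal proteins. Among named genes the sign turned within single slides for CEBPE (0.076) and FCRLA (-0.087) on slide 1, SLA-3 (-0.18) on slide 2, JCHAIN (-0.36) and NCR3 (0.45) on slide 3, and NCR3 (0.64) and OASL (-0.99) on slide 4.

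Leaving out 1 array moved the neutrophil median between -0.57 and 0.09 (without F1 HS replicate 2), the cytotoxic one between -0.18 and 0.02 (without F1 HS replicate 1), and the red cell membrane one to -0.35 and heme to -0.44 without F1 HS replicate 5. The red cell membrane median was -0.41 without F1 TN replicate 4. The B cell median was 0.14 without F1 HS replicate 4, 0.16 without F1 HS replicate 5 and 0.14 without LW HS replicate 1, and the interferon one 0.21 without F1 HS replicate 2, 0.15 without F1 TN replicate 4 and 0.18 without LW HS replicate 5. MHC class I had 0.20 without F1 HS replicate 5 and 0.20 without F1 TN replicate 4, HSP90 had 0.11 without LW HS replicate 1, and the unfolded protein response had 0.064 without LW TN replicate 1. The other 17 lists kept their side of 0.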

Other observations

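Of 52 gene lists, 13 had a median difference below 0 and 36 one above the median of all genes. Circadian clock genes had a median of 0.18, with 12 of 17 above 0, and held 5 above 0 and 2 below 0 at an unadjusted p under 0.05 (29.4% and 11.8%, against 9.9% and 13.9% of all genes). Immediate early genes held 5 and 6 of 22 (22.7% and 27.3%). Platelet genes (21) and monocyte genes (20) held 0 at an unadjusted p under 0.05 and 0 at an adjusted p under 0.05 in limma. These lists were singled out after their values were seen.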
